A study of Mus musculus with 6 samples.

Results

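The kinetochore is the protein assembly on the centromere that holds each chromosome to the spindle. Its genes were followed here in heart ventricles of Cend1-KO and control mice. The group holds 45 named genes of the centromere, the kinetochore, the spindle assembly checkpoint and the chromosomal passenger complex, chosen by name and found in a table of 57010 gene identifiers. All 45 were found once each. RNA sequencing was done on 3 Cend1-KO libraries (replicates 1, 3 and 4) and 3 control libraries (replicates 1, 3 and 4), all taken at postnatal day 14. The deposited columns of the controls carry the name WT. The sources used here do not give the strain, sex, allele, any Cre driver or whether animals were pooled, and the series title names Cend1 as a gene that the histone demethylase LSD1 holds down in heart regeneration. No label says that each library is a separate animal, so a p-value here covers only how these libraries vary, part of which may be technical.

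A centromere is marked by nucleosomes that carry the histone H3 variant CENP-A. A constitutive network of CENP proteins binds these nucleosomes through the cell cycle, and in mitosis it recruits the KMN network (the Knl1, Mis12 and Ndc80 complexes), which grips microtubules. The spindle assembly checkpoint holds back anaphase while a kinetochore is unattached, and the chromosomal passenger complex corrects wrong attachments. Many of these genes are transcribed mainly in dividing cells, and cardiomyocytes of the mouse largely leave the cell cycle in the days after birth. In bulk tissue, fewer dividing cells and less RNA per dividing cell cannot be told apart.

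The values are transcripts per 1000000 (TPM), made by the authors. They are scaled by gene length, so levels can be compared between genes. TPM hold no trace of how deeply a library was sequenced, and depth is unknown. Cend1 was listed at 0 in every Cend1-KO library, against 1.44, 1.99 and 1.54 TPM in replicates 1, 3 and 4 of the controls, a difference given with no test because Cend1 passed the filter only through the controls. Mitochondrial-genome transcripts took 34.9% of Cend1-KO replicate 3 and 17.9% to 22.9% of the other 5 libraries, which leaves less of that library's total to all other genes. Median-of-ratios scaling, which sets the median gene level, moved the median difference over all tested genes to -0.0045 on the log2 scale, against -0.11 as deposited. The 12 cardiomyocyte markers were abundant in every library, with sums of 34680 to 51450 TPM in Cend1-KO and 60970 to 67960 TPM in controls. Of them 0 were called, but all 12 had a lower mean log2 level in Cend1-KO, 7 at an unadjusted p under 0.05 (limma). Of all tested genes, 10.4% were lower at that unadjusted p. For 8 of the 12 every Cend1-KO library lay below every control as deposited, and for 1 after scaling (18.6% and 17.6% of all tested genes).

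Of the 45 genes, 11 fell in Cend1-KO ventricles and 0 rose, 31 did not pass the test, and 3 (Cenpu, Knl1 and Nsl1) lay under the filter of 1 TPM in at least 3 libraries and were not tested. Over all 13542 genes tested, 0.908% were called lower and 0.79% higher (limma on log2(TPM + 1), Benjamini-Hochberg adjusted p under 0.05). At an unadjusted p under 0.05 none of the 45 was higher and 30 were lower, where 4.98% and 10.4% of all tested genes were. The 11 were Cenpm and Cenpn of the constitutive network, Nuf2, Spc24, Spc25 and Pmf1 of the KMN network, Ska1, the checkpoint kinase Bub1, and Aurkb, Birc5 and Cdca8 of the passenger complex. After scaling, their Cend1-KO means were between 26.2% and 45.2% of the control means. Of the 42 tested genes, 8 had fewer than 3 Cend1-KO libraries at 1 TPM and so passed the filter with help from controls, among them Ska1 and Aurkb of the 11. Ska1 reached 1 TPM in Cend1-KO replicate 1 only and so would not have passed without the controls, where it is high.

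After median-of-ratios scaling 24 of the 45 fell and 1 (Mis18a) rose, where 4.29% and 6.12% of all tested genes were called lower and higher. All 11 were among the 24, and so was Sgo1, which passed the filter only through the controls. All 3 Cend1-KO libraries lay below every control for 33 of the 45, both as deposited, where 18.6% of tested genes did so, and after scaling, where 17.6% did. The opposite pattern, with the lowest Cend1-KO value over the highest control, was seen for none of the 45 as deposited (5.67% of tested genes) and for Mis18a and Mis12 after scaling (17.5%). The median difference over all 45, untested members included, was -0.77 on the log2(TPM + 1) scale, or -0.66 relative to the median of all tested genes. After scaling it was -0.68. By library it was then -0.67, -0.58 and -0.83 in Cend1-KO replicates 1, 3 and 4, against -0.21, 0.12 and 0.11 in control replicates 1, 3 and 4, each from the control mean.

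Many of the calls as deposited did not hold when a library was left out, and a fit on fewer libraries also has less power. Without control replicate 3 only Cdca8 kept its call, and the adjusted p of the other 10 lay between 0.0638 and 0.207 (limma; 0.209% of all genes called lower). Without Cend1-KO replicate 4 the calls that held were Cdca8 and Spc24, with 0.0508 to 0.178 for the other 9 (0.315% of all genes). Leaving out control replicate 1 or control replicate 4 ended 4 calls each, with 7 genes called lower both times (0.381% and 0.55% of all genes). Without control replicate 1 these were Aurkb, Bub1, Cenpn and Pmf1, with adjusted p of 0.0534 to 0.103, and without control replicate 4 they were Aurkb, Bub1, Cenpn and Spc25, with 0.0557 to 0.104. Without Cend1-KO replicate 1 or 3 none of the 11 was lost, and 25 and 18 of the 45 fell (4.16% and 2.35% of all genes). On scaled values the 24 became 12 without control replicate 3 (1.14% of all genes) and 16 without control replicate 4 (2.7%), 21 without control replicate 1 (1.43%), and 21, 24 and 20 without Cend1-KO replicate 1, 3 or 4 (3.07%, 4.47% and 3.27%). Bub1 and Cenpn were the members of the 11 that lost a scaled call, both without control replicate 3. So did Ndc80, Bub1b and Ska3, with adjusted p of 0.0706, 0.0729 and 0.0616. Ska1 fell under the filter, and was not tested, without control replicate 1 or 4, and Sgo1 without any control.

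**Figure D1:**
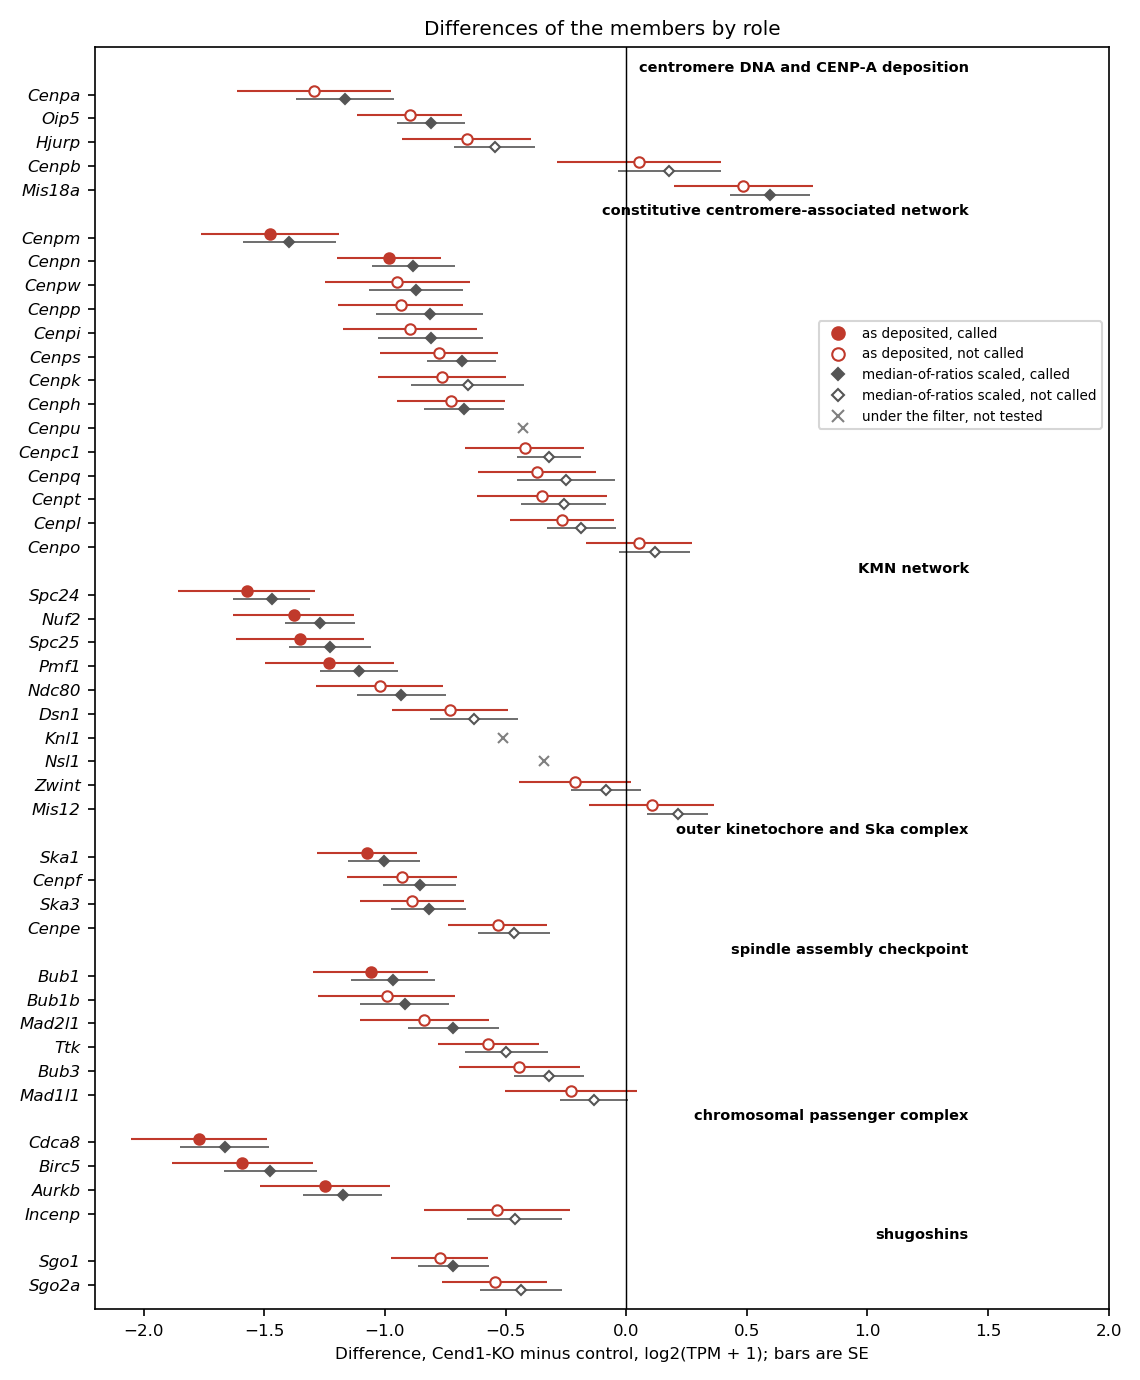
Difference between Cend1-KO and control means for each gene, on the log2(TPM + 1) scale with its standard error, grouped by role. Circles are TPM as deposited, diamonds are median-of-ratios scaled values, filled symbols have an adjusted p under 0.05 (limma), and crosses were under the filter; the lowest is Cdca8 at -1.77 and the highest Mis18a at 0.49, both as deposited.

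The promoters of 40 of the 45 genes were in the RefSeq table used (GRCm38.p6, 250 bases before to 50 after the annotated start). Spc24, Aurkb, Incenp, Nsl1 and Ska1 were not matched. The source held 32851 windows for 27025 genes, so some genes have several starts, and a match in any window of a gene was counted. Genes of the G2 phase and mitosis are known for a promoter element called CHR, often TTTGAA or TTTAAA, and for CCAAT boxes, and these letters were searched on both strands (TTTAAA reads the same on both). TTTGAA stood in the windows of 16 of the 40 genes (40.0%), against 14.7% of 9624 tested genes and 20.2% of all 27025 genes in the table. CCAAT stood in 26 of the 40 (65.0%), against 43.3% of tested genes and 41.1% of all genes, and TTTAAA in 9 (22.5%), against 11.2% and 14.9%. The E2F-type strings TTTGGCGC and TTTCGCGC were held by 1 and 0 of the 40. They were held by 1.16% and 0.748% of tested genes, and by 0.585% and 0.374% of all genes. Other forms of the E2F site were not searched. Of the 21 members with a window that fell on scaled values, 11 held TTTGAA, as did 4 of 16 that did not pass. The 21 include Sgo1, which passed the filter only through the controls and held no TTTGAA. Split in the same way, TTTAAA stood in 5 of 21 and 4 of 16, and CCAAT in 14 of 21 and 11 of 16, and none of these differences was tested. For the spaced pair of a CDE and a CHR, only 1 pattern of 14 letters was searched. This pattern was found in Cenpf alone among the 40 and in 0.0851% of all genes, and this match overlaps the TTTGAA of Cenpf. Other forms of the pair were not searched, so this count does not show that the other promoters lack one.

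Promoters are printed 5' to 3' on the strand of the gene for the 4 called genes with a window and the lowest p (Cdca8, Nuf2, Birc5 and Cenpm), for Cenpf, added after its match was seen, and for Cenpo, whose level differed least. Capitals mark the matches, where ATTGG is CCAAT on the opposite strand. The windows are chr4:124936868-124937167 (minus strand), chr1:169531415-169531714 (minus), chr11:117848987-117849286 (plus), chr15:82244287-82244586 (minus), chr1:189688037-189688336 (minus) and chr12:4233916-4234215 (minus), in the same order. The windows of Cdca8, Cenpm and Cenpo lie wholly inside the spans that GENCODE gives these genes, so their outermost annotated starts are further upstream.
Cdca8: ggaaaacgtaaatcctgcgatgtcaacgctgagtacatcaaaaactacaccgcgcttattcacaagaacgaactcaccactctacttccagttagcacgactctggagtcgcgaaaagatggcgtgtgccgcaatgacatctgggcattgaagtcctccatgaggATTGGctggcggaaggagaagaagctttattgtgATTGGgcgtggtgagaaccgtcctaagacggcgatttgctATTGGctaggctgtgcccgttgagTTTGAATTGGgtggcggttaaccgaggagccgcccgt
Nuf2: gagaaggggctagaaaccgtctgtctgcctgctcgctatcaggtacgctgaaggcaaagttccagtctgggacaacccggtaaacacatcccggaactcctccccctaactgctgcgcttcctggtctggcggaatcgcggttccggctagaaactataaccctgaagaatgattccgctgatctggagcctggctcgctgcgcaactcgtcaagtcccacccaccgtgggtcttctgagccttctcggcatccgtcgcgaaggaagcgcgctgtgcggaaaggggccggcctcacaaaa
Birc5: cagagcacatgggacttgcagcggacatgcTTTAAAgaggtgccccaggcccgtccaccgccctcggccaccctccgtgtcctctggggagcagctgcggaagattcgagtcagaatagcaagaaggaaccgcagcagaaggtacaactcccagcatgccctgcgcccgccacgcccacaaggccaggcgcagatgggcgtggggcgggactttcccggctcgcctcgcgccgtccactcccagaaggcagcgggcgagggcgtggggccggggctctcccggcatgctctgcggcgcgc
Cenpm: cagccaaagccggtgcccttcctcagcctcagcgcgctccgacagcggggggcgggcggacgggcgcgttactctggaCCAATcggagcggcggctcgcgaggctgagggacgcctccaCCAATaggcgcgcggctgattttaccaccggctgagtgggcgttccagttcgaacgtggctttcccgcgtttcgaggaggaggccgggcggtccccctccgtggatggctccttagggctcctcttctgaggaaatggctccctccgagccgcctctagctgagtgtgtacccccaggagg
Cenpf: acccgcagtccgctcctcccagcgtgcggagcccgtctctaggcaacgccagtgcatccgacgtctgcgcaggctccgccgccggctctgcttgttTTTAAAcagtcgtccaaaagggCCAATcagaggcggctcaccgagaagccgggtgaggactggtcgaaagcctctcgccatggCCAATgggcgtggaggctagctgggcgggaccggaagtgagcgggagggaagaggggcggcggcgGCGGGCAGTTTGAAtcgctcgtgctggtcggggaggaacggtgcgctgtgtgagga
Cenpo: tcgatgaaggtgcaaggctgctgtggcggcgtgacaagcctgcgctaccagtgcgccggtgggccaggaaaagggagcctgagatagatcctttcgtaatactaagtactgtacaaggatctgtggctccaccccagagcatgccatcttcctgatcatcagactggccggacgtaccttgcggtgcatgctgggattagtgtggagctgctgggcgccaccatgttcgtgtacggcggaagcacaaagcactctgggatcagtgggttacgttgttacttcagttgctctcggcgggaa
Cdca8 held 4 CCAAT boxes and a TTTGAA whose last base is also the first of one of them. Birc5 held a TTTAAA alone, 220 bases before the start, and Cenpm held 2 CCAAT boxes. Nuf2, which fell, and Cenpo, which did not pass, both held no match, which says only that these letters are not in these windows.

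Cenpa, the gene of CENP-A itself, had the highest mean of the 45 in controls, while in each Cend1-KO library Cenpb was slightly above it and in Cend1-KO replicate 3 Zwint was above both. In the order of replicates 1, 3 and 4, used from here on, Cenpa had 76.8, 26.3 and 49.9 TPM in Cend1-KO, against 101.8, 125.5 and 121.4 TPM in controls. The groups do not overlap, with the lowest value in Cend1-KO replicate 3, and the difference of -1.29 (SE 0.32) missed the threshold as deposited (limma adjusted p = 0.0607) and passed it after scaling (-1.17, adjusted p = 0.00755). Cenpb, which binds a DNA motif of the centromeric satellite, was at 78.3, 26.5 and 50.5 TPM in Cend1-KO and at 50.9, 34.3 and 54.0 TPM in controls. Its groups overlap, and its difference of 0.05 (adjusted p = 0.957) was 0.18 after scaling. The ratio of Cenpa to Cenpb was 0.981, 0.989 and 0.987 in Cend1-KO, against 2.002, 3.66 and 2.25 in controls, a pair chosen after the values were seen.

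New CENP-A is placed by its chaperone Hjurp after the Mis18 complex, with Mis18a and Oip5 (Mis18b), has marked the centromere. Oip5 was at 2.07, 1.40 and 1.56 TPM in Cend1-KO, against 3.47, 4.40 and 4.05 TPM in controls. Every Cend1-KO value was below every control, and the adjusted p was 0.0558 as deposited and 0.00758 after scaling (limma). Its partner Mis18a was at 14.3, 6.72 and 7.95 TPM in Cend1-KO, against 5.19, 6.41 and 7.399 TPM in controls. These groups overlap as deposited (difference 0.49, adjusted p = 0.446), while on scaled values all 3 Cend1-KO libraries were higher, at 11.6, 9.39 and 8.05, against 5.002, 6.53 and 6.575, and the gene rose by 0.60 (adjusted p = 0.0470). That call is near the threshold and was mostly lost when a library was left out, though a fit on fewer libraries also has less power. On scaled values the adjusted p was 0.0454 without Cend1-KO replicate 4 and between 0.0653 and 0.1915 when any other library was left out (limma). Oip5 per Mis18a was 0.183 ± 0.034 in Cend1-KO and 0.635 ± 0.076 in controls (SD, n = 3 each). Hjurp was at 7.04 ± 1.54 TPM in Cend1-KO and 11.7 ± 2.73 TPM in controls (SD, n = 3 each; adjusted p = 0.261, and 0.0657 scaled).

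**Figure D2:**
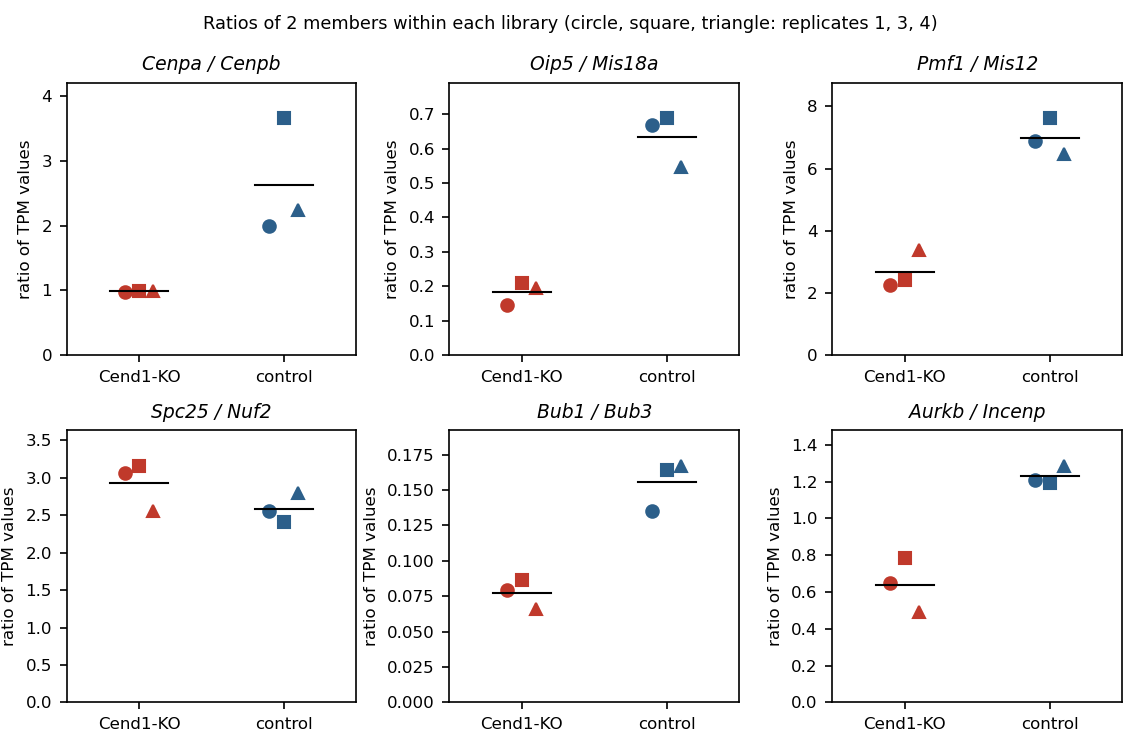
Ratios of the TPM of 2 genes within each library, which do not depend on how the library is scaled; points are replicates 1 (circle), 3 (square) and 4 (triangle) and lines are group means. The groups do not overlap for Cenpa over Cenpb, Oip5 over Mis18a, Pmf1 over Mis12, Bub1 over Bub3 and Aurkb over Incenp, and they overlap for Spc25 over Nuf2; the pairs were chosen after the values were seen.

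Of the 14 genes of the constitutive network 2 fell as deposited and 7 after scaling, where 0.908% and 4.29% of all tested genes were called lower. As deposited, 13 of the 14 had a lower mean log2 level in Cend1-KO. The median difference over all tested genes was lower there too, at -0.11. Cenpm (ENSMUSG00000068101; GENCODE M21 on mm10, chr15:82233779-82244748, minus strand) was at 4.05, 1.39 and 1.97 TPM in Cend1-KO, against 7.91, 9.62 and 7.19 TPM in controls. The gap between the groups was wider than the spread in either, and the difference was -1.48 (SE 0.29, limma adjusted p = 0.0197). Cenpn (ENSMUSG00000031756; chr8:116921730-116941507, plus strand), whose protein reads the CENP-A nucleosome directly, was at 1.73, 1.71 and 1.56 TPM in Cend1-KO, against 3.501, 4.81 and 4.62 TPM in controls. Its Cend1-KO values spread little, and the difference was -0.98 (SE 0.22, adjusted p = 0.0359).

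Cenpw, Cenpp, Cenpi, Cenps and Cenph had differences between -0.95 and -0.73 as deposited, none of them called (adjusted p of 0.0979 to 0.147), and all 5 fell after scaling (adjusted p of 0.0175 to 0.0460, limma). These scaled calls were not stable, though a fit on fewer libraries also has less power. Of the 6 ways to leave out a library, 5 ended the call of Cenph, Cenpi and Cenpp, 3 that of Cenps and 2 that of Cenpw. The adjusted p was then 0.0502 to 0.118 for Cenph, 0.0555 to 0.155 for Cenpi, 0.0502 to 0.165 for Cenpp, 0.0513 to 0.0779 for Cenps and 0.0551 to 0.0977 for Cenpw, and leaving out control replicate 3 or 4 ended all 5. Cenpp, with the highest mean of the network over the 6 libraries, was at 7.46, 6.89 and 5.201 TPM in Cend1-KO, against 10.13, 15.09 and 15.11 TPM in controls, with no overlap. Cenpk had a scaled adjusted p of 0.0996, with 3.26, 2.82 and 2.09 TPM in Cend1-KO and 3.44, 6.10 and 6.83 TPM in controls. Cenpc1, whose protein links CENP-A to the Mis12 complex, was at 3.77 ± 1.09 TPM in Cend1-KO and 5.30 ± 0.75 TPM in controls (adjusted p = 0.441). Cenpq, the highest of the network in Cend1-KO on average, was at 8.03, 8.22 and 7.26 TPM there, against 8.45, 10.51 and 12.67 TPM in controls. Cenpq, Cenpt and Cenpl differed by -0.37, -0.35 and -0.27 and did not pass on either scale. Cenpt, which recruits the Ndc80 complex by its own route, was at 4.72, 2.13 and 3.06 TPM in Cend1-KO and 3.26, 5.31 and 4.58 TPM in controls, so the groups overlap. Cenpo was at 2.25, 1.11 and 1.91 TPM in Cend1-KO and 1.396, 1.98 and 1.504 TPM in controls, the smallest difference of the 45 (0.053). Cenpu, not tested, was at 0.656, 0.426 and 0.411 TPM in Cend1-KO, against 0.956, 1.10 and 0.981 TPM in controls, with no overlap.

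The Ndc80 complex, the rod that binds microtubules, has 4 subunits, and 3 of them fell as deposited, where 0.908% of all tested genes did. Spc24 (ENSMUSG00000074476; chr9:21755442-21760303, minus strand) was at 7.01, 2.90 and 5.23 TPM in Cend1-KO, against 14.6, 17.8 and 16.5 TPM in controls. The highest Cend1-KO value was below the lowest control, and the difference was -1.57 (SE 0.29, limma adjusted p = 0.0138). Its dimer partner Spc25 (ENSMUSG00000005233; chr2:69193895-69206194, minus strand) was at 13.8, 9.30 and 9.46 TPM in Cend1-KO, against 23.4, 27.5 and 37.1 TPM in controls (difference -1.35, adjusted p = 0.0204). Nuf2 (ENSMUSG00000026683; chr1:169497934-169531464, minus strand) was at 4.52, 2.94 and 3.70 TPM in Cend1-KO, against 9.15, 11.4 and 13.3 TPM in controls (difference -1.38, adjusted p = 0.0140). Ndc80, the partner of Nuf2, was at 2.86, 1.51 and 1.66 TPM in Cend1-KO, against 3.47, 5.58 and 6.31 TPM in controls. It differed by -1.02, missed the threshold as deposited (adjusted p = 0.0716) and fell after scaling (adjusted p = 0.0141).

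The 4 subunits kept a common order in both groups, Spc25 above Spc24, Nuf2 and Ndc80 on the per-length scale, with 1 exception: in Cend1-KO replicate 3 Nuf2 (2.94 TPM) lay slightly above Spc24 (2.90 TPM). Spc25 per Ndc80 was 5.57 ± 0.66 in Cend1-KO and 5.85 ± 0.91 in controls (SD, n = 3 each), and the groups overlap. Spc25 per Nuf2 overlaps as well, at 2.93 ± 0.32 in Cend1-KO and 2.59 ± 0.19 in controls.

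Of the Mis12 complex, which joins the inner kinetochore to Ndc80, Pmf1 fell, Dsn1 and Mis12 did not pass, and Nsl1 was not tested. Pmf1 (ENSMUSG00000028066; chr3:88394143-88410331, minus strand) was at 19.9, 11.1 and 20.6 TPM in Cend1-KO, against 38.3, 43.8 and 39.1 TPM in controls. It fell by 1.23 on the log2 scale (SE 0.27, limma adjusted p = 0.0340). Mis12 itself was at 8.84, 4.60 and 6.09 TPM in Cend1-KO and 5.57, 5.76 and 6.05 TPM in controls, where the Cend1-KO values span the controls (difference 0.11, adjusted p = 0.883). After scaling all 3 Cend1-KO values of Mis12 were above the controls, at 7.16, 6.43 and 6.16, against 5.37, 5.86 and 5.38, with a difference of 0.21 that did not pass (adjusted p = 0.300). Pmf1 per Mis12 was 2.68 ± 0.61 in Cend1-KO and 6.98 ± 0.58 in controls (SD, n = 3 each). Dsn1 was at 2.29 ± 0.64 TPM in Cend1-KO and 4.46 ± 0.92 TPM in controls (adjusted p = 0.164, and 0.0561 scaled), and Nsl1 stayed under 1 TPM in all 6 libraries.

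Knl1, the scaffold that recruits the Bub proteins, was also under the filter, at 0.741, 0.385 and 0.485 TPM in Cend1-KO, against 0.908, 1.18 and 1.49 TPM in controls. No Cend1-KO library reached a control. Its partner Zwint was by contrast among the most abundant of the 45, at 46.8, 32.8 and 34.3 TPM in Cend1-KO and 41.55, 42.55 and 46.8 TPM in controls (difference -0.21, limma adjusted p = 0.706). Zwint had the smallest scaled difference of all 45, -0.08.

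The outer kinetochore genes were at low levels. Ska1 (ENSMUSG00000036223), of a complex that tracks microtubule ends, was at 1.24, 0.7185 and 0.6925 TPM in Cend1-KO, against 2.47, 3.39 and 2.99 TPM in controls. The groups are separate, with a difference of -1.07 (SE 0.21, limma adjusted p = 0.0200). Its partner Ska3 was at 0.943 ± 0.381 TPM in Cend1-KO and 2.58 ± 0.53 TPM in controls (SD, n = 3 each), with adjusted p = 0.0576, and 0.0117 scaled. Cenpf, a large coiled-coil protein of the fibrous corona, was at 1.63, 0.826 and 0.893 TPM in Cend1-KO, against 2.48, 2.67 and 3.91 TPM in controls (adjusted p = 0.0593, and 0.00780 scaled). The kinesin Cenpe was at 1.005, 0.636 and 0.722 TPM in Cend1-KO, against 1.25, 1.31 and 2.27 TPM in controls (adjusted p = 0.236, and 0.0745 scaled). For all 4 of these genes every Cend1-KO library lay below every control, as deposited and after scaling. Of all tested genes, 18.6% and 17.6% did so. As deposited, Cend1-KO replicate 1 was the only library of its group at 1 TPM or more in each of the 4. They therefore passed the filter with help from the controls, where they are high.

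**Figure D3:**
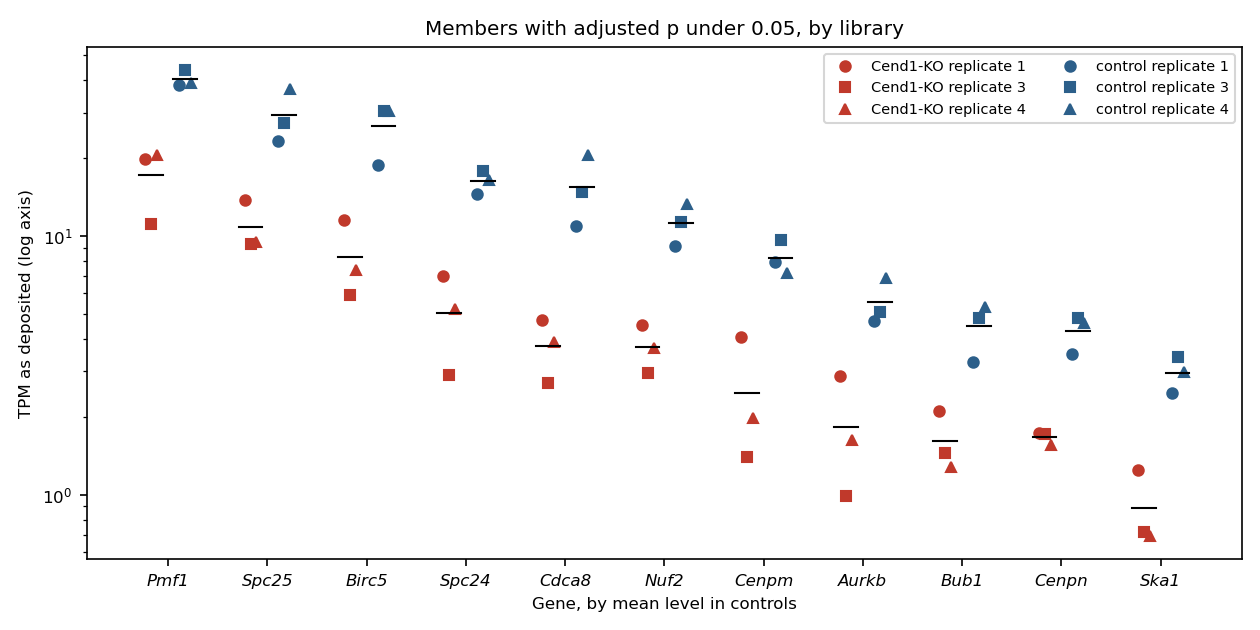
TPM as deposited, on a log axis, for the 11 genes with an adjusted p under 0.05, in each library; lines are group means. In each gene all 3 Cend1-KO values (left) lie below all 3 control values (right), from Pmf1 at 17.2 against 40.4 TPM on average to Ska1 at 0.884 against 2.95 TPM.

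Among the checkpoint genes, the kinase Bub1 (ENSMUSG00000027379; chr2:127801122-127831865, minus strand) was at 2.10, 1.452 and 1.28 TPM in Cend1-KO, against 3.26, 4.81 and 5.34 TPM in controls. No value crosses between the groups, and the difference was -1.06 (SE 0.24, limma adjusted p = 0.0400). Its relative Bub1b (BubR1), part of the complex that inhibits the anaphase-promoting complex, was at 3.28, 1.09 and 2.44 TPM in Cend1-KO, against 4.05, 5.47 and 6.44 TPM in controls (adjusted p = 0.108, and 0.0147 scaled). Bub3, which carries both to the kinetochore, was at 26.4, 16.8 and 19.3 TPM in Cend1-KO and 24.1, 29.2 and 32.0 TPM in controls. These ranges overlap, and Bub3 passed on neither scale (adjusted p = 0.420, and 0.184 scaled). Bub1 per Bub3 was 0.0774 ± 0.0102 in Cend1-KO and 0.156 ± 0.018 in controls (SD, n = 3 each).

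Mad2l1, whose protein changes shape on unattached kinetochores, was at 11.2, 8.07 and 7.61 TPM in Cend1-KO, against 12.6, 17.04 and 21.1 TPM in controls, and passed only after scaling (adjusted p = 0.152, and 0.0399 scaled, limma). That scaled call was lost without Cend1-KO replicate 1 or 4 and without control replicate 3 or 4, with adjusted p of 0.0753 to 0.143. Its template Mad1l1 was at 6.53, 2.72 and 4.47 TPM in Cend1-KO and 5.29, 4.93 and 5.61 TPM in controls. The control values of Mad1l1 lie inside the range of Cend1-KO (difference -0.23, adjusted p = 0.733). The kinase Ttk (Mps1) was at 1.399, 1.003 and 0.588 TPM in Cend1-KO, against 1.59, 2.09 and 2.13 TPM in controls (adjusted p = 0.210, and 0.0923 scaled).

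The passenger complex held the lowest difference of the 45. Of its 4 genes 3 fell, both as deposited and after scaling, where 0.908% and 4.29% of all tested genes were called lower. Cdca8, the gene of Borealin (ENSMUSG00000028873; chr4:124918465-124939311, minus strand), whose promoter above held both CCAAT and TTTGAA, was at 4.73, 2.70 and 3.89 TPM in Cend1-KO, against 10.98, 14.8 and 20.7 TPM in controls. The highest Cend1-KO value was less than the lowest control, and the difference was -1.77 (SE 0.28, limma adjusted p = 0.00736). Birc5, the gene of Survivin (ENSMUSG00000017716; chr11:117849251-117855743, plus strand), was at 11.5, 5.89 and 7.38 TPM in Cend1-KO, against 18.9, 30.5 and 30.5 TPM in controls (difference -1.59, adjusted p = 0.0140). The kinase of the complex, Aurkb (ENSMUSG00000020897; chr11:69045647-69051664, plus strand), was at 2.88, 0.988 and 1.62 TPM in Cend1-KO, against 4.68, 5.07 and 6.87 TPM in controls (difference -1.25, adjusted p = 0.0340). Incenp, the scaffold on which the others sit, was at 4.45, 1.26 and 3.32 TPM in Cend1-KO and 3.87, 4.25 and 5.34 TPM in controls. Its groups overlap as deposited (difference -0.54, adjusted p = 0.420) and part after scaling, still without a call (adjusted p = 0.158). Aurkb per Incenp was 0.640 ± 0.147 in Cend1-KO and 1.23 ± 0.05 in controls (SD, n = 3 each).

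The shugoshins guard cohesin at the centromere until anaphase. Sgo1 was at 0.927, 0.495 and 0.476 TPM in Cend1-KO, against 1.34, 1.89 and 2.14 TPM in controls, and it is the 1 tested gene with no Cend1-KO library at 1 TPM. Sgo1 had an adjusted p of 0.0729 as deposited and 0.0154 after scaling (limma). It passed the filter only through the controls, where it is high, so its scaled call is not read as a result. Sgo2a was at 2.44, 2.498 and 2.24 TPM in Cend1-KO, against 3.55, 3.70 and 4.66 TPM in controls (adjusted p = 0.254, and 0.125 scaled). Exons of Kctd18, on the opposite strand, cover 35.0% of its exonic length, and counting by strand is not stated, so reads of these genes cannot be told apart. In all, 13 of the 45 share exonic bases with another gene, Cdca8 the only one of the 11 called (4.48% of its exonic length), and the shares of Cenpu and Cenpo reach 26.7% (Primpol) and 19.0% (Adcy3).

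The libraries of a group also differed among themselves. Control replicate 1 had the lowest control value in 42 of the 45 genes as deposited and in 39 after scaling. Cend1-KO replicate 1 was the highest of its group in 41 as deposited and in 23 after scaling, and Cend1-KO replicate 4 was then the lowest in 25. The summed TPM of the 45 was 422.4, 216.5 and 295.7 in Cend1-KO replicates 1, 3 and 4, against 473.6, 559.1 and 611.8 in control replicates 1, 3 and 4. After scaling the sums drew together within Cend1-KO, at 342.0, 302.7 and 299.3, against 456.7, 569.5 and 543.6 in controls.

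**Figure D4:**
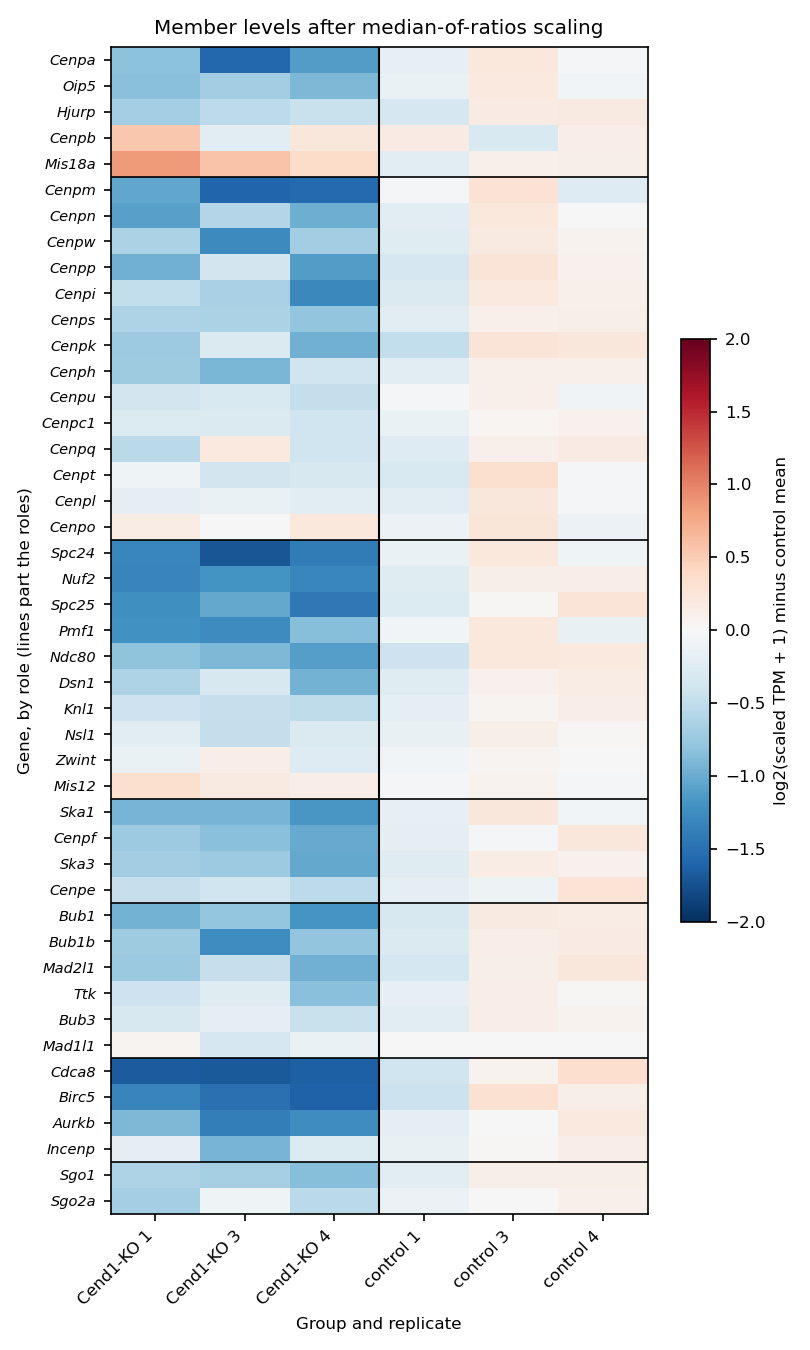
Level of each of the 45 genes in each library after median-of-ratios scaling, as log2(scaled TPM + 1) minus the control mean, with Cend1-KO libraries on the left and roles parted by lines. Most genes are below the control mean in all 3 Cend1-KO libraries, deepest in Cdca8, Birc5, Spc24 and Cenpm, while Mis18a and Mis12 are above it in all 3.

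For Mki67, which marks cells in cycle, the values were 3.26, 2.175 and 2.07 TPM in Cend1-KO, against 4.595, 4.501 and 7.20 TPM in controls (limma adjusted p = 0.114, and 0.0195 scaled). Set against it within each library, the sum of the 45 genes was 124.0 ± 22.3 per unit of Mki67 in Cend1-KO and 104.1 ± 19.7 in controls (SD, n = 3 each), and the groups overlap. Cenpa, Cenpb and Zwint weigh most in this sum, at 51.0, 51.8 and 38.0 of 311.5 TPM on average in Cend1-KO. In controls they were at 116.2, 46.4 and 43.6 of 548.2 TPM. None of these 3 was called as deposited, so the ratio of the sum says little of the less abundant genes. Cdca8 per Mki67 was 1.449, 1.24 and 1.88 in Cend1-KO, against 2.39, 3.30 and 2.87 in controls, and Birc5 per Mki67 was 3.53, 2.71 and 3.57, against 4.12, 6.79 and 4.24. Neither of these overlaps, while Cenpa per Mki67 does, at 19.9 ± 6.79 in Cend1-KO and 22.3 ± 5.51 in controls. These ratios were chosen after the values were seen and carry no test.

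Other genes of the same pathway that are not among the 45 were counted from a list of 24. Of these, 6 fell as deposited, 15 did not pass, 0 rose and 3 were under the filter, and 9 fell after scaling. Of all tested genes, 0.908% were called lower as deposited and 4.29% after scaling. The 6 were Plk1, Cdc20, Spag5, Kif2c, Zwilch and Clasp1. Plk1, a kinase that builds the mitotic kinetochore, was at 2.41, 0.947 and 1.78 TPM in Cend1-KO, against 6.10, 7.01 and 9.36 TPM in controls (limma adjusted p = 0.00736). Cdc20, the target of the checkpoint, was at 5.69 ± 2.54 TPM in Cend1-KO and 20.4 ± 6.14 TPM in controls (SD, n = 3 each; adjusted p = 0.0154). Zwilch, of the complex that brings dynein and Mad1 to kinetochores, was at 1.06 ± 0.33 and Clasp1, a microtubule rescue factor, at 15.1 ± 2.30 TPM in Cend1-KO, against 2.91 ± 0.53 and 33.1 ± 5.41 TPM in controls (adjusted p = 0.0437 and 0.0400). The count of 6 became 2 without Cend1-KO replicate 4, 1 without control replicate 3, which was Plk1, and 3 without control replicate 4. By contrast, Cenpx, Bod1 and Pttg1, the most abundant of the list, differed by -0.01, -0.21 and -0.36 (adjusted p of 0.478 to 0.995).

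Cohesin holds sister chromatids together and acts in interphase too. Of its 13 genes limma called 0 as deposited, with 2 lower and 0 higher at an unadjusted p under 0.05, and the median difference was 0.13. Of all tested genes, 10.4% were lower and 4.98% higher at that unadjusted p. After scaling 2 fell, where 4.29% of all tested genes did. They were the acetyltransferase Esco2 and Cdca5 (sororin), which act on cohesin in the S phase, with adjusted p of 0.0294 and 0.0212 (limma). This count became 1 without replicate 1 of either group and 0 without Cend1-KO replicate 4, control replicate 3 or control replicate 4. Esco2 was at 1.96 ± 0.54 TPM in Cend1-KO and 4.37 ± 0.73 TPM in controls, and Cdca5 at 1.21 ± 0.75 and 2.81 ± 0.59 TPM (SD, n = 3 each).

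**Figure D5:**
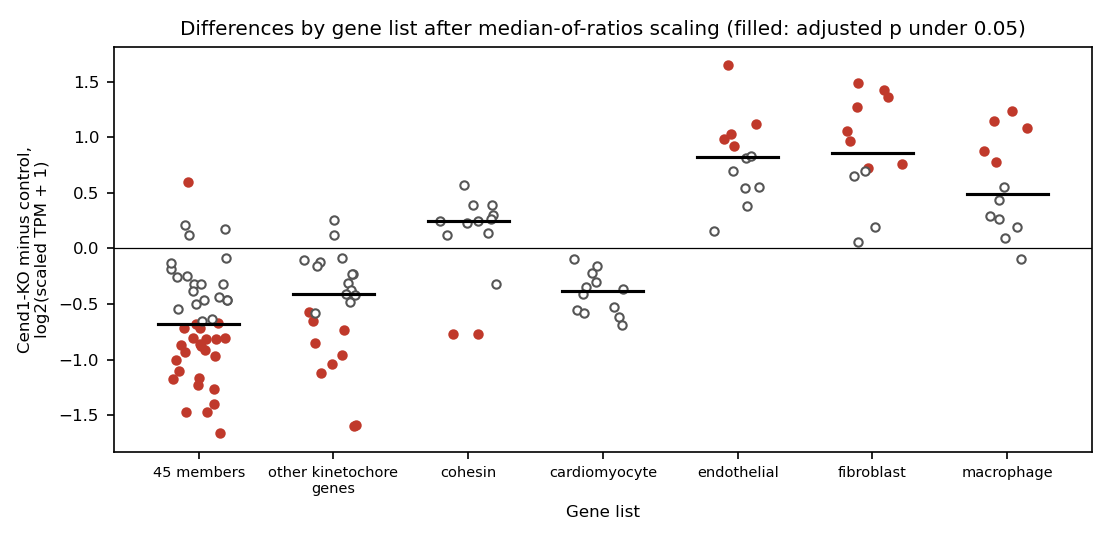
Difference between Cend1-KO and control means of each gene after median-of-ratios scaling, on the log2(scaled TPM + 1) scale, by gene list; filled points have an adjusted p under 0.05 (limma) and lines are medians. The median is -0.68 for the 45 genes, -0.41 for the other kinetochore genes and 0.25 for cohesin, and it is above 0 for endothelial, fibroblast and macrophage markers.

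Markers of several cell types also differed between the groups, and those of most types were higher in Cend1-KO, where most of the 45 genes were lower. On scaled values, 5 of 12 endothelial, 8 of 12 fibroblast and 5 of 12 macrophage markers rose in Cend1-KO, and as deposited 1, 1 and 0 of them did (5 macrophage markers at an unadjusted p under 0.05, limma). None of these markers was called lower on either scale. Of all tested genes, 6.12% were called higher on scaled values and 0.79% as deposited, and 4.98% were higher as deposited at an unadjusted p under 0.05 (limma). Their sums were 3358 to 4931, 4918 to 5838 and 1298 to 1826 scaled TPM in Cend1-KO, against 1732 to 1939, 2157 to 3288 and 736.9 to 998.1 in controls. The cardiomyocyte markers summed to 34610 to 52080 in Cend1-KO and 54170 to 69220 in controls, with 0 of 12 called. Erythroid markers summed to 11940 to 19840 scaled TPM in Cend1-KO and 1340 to 4558 in controls, with 5 of the 7 found rising on scaled values and 3 as deposited. Adipocyte markers summed to 17.47 to 52.95 scaled TPM in Cend1-KO and 0.0169 to 8.41 in controls, with 3 of 8 rising on both scales. Retn and Cfd, among these 3, were listed at 0 in control replicates 1 and 3 and passed the filter only through Cend1-KO, where they are high. Adipoq, also among them, was at 0.0715, 0 and 1.27 TPM in control replicates 1, 3 and 4. It too would not have passed without Cend1-KO. Lung epithelium markers summed to 406.9, 0.7585 and 838.6 in Cend1-KO replicates 1, 3 and 4, against 0.944 to 1.08 in controls, and the lung marker Sftpc was listed at 0 in all controls. Cend1-KO replicate 3, nearly free of lung transcripts, had a median scaled difference of -0.58 over the 45 genes, against -0.67 and -0.83 in Cend1-KO replicates 1 and 4. The part of these shifts in cell makeup in the kinetochore results was not tested.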

How the data were processed

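The submitters' processing notes name the mm10 build, HISAT2 (2.0.5), featureCounts (1.5.0-p3), CASAVA and fastp. The authors deposited TPM per gene, although the table is named for counts: the values have decimals and sum to 1000000 in each library. The annotation and the way TPM were made are not stated in the sources used. TRIzol extraction of ventricles and a NEBNext Ultra kit gave the libraries, per the labels' protocols. Columns were matched through the sample descriptions, and the replicate numbers are those of the titles.

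Identifiers were joined to GENCODE M21 (52081 of 57010 matched). Where 3 or more libraries reached 1 TPM, a gene was tested with limma 3.58.1 (R 4.3.3) on log2(TPM + 1) with a mean-variance trend and robust prior, Cend1-KO minus control. The pseudocount understates changes of low genes. The fit was also run on simulated data with independent noise for each gene and library. That simulation held no shift of a whole library, so it says nothing on such shifts. A gene is called at an adjusted p under 0.05 (Benjamini-Hochberg, all tested genes).

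Every member is accounted for, with values in each library for called members, the most abundant and least changed of each role, and others a result turned on. Promoters were printed by p, with Cenpf added. The members, lists and tests were chosen with earlier results of these data known. Alternatives were other scalings, pseudocounts, filters, priors, the replicate number as a block and leaving out each library, and, added later, leaving out libraries after scaling.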

Additional observations from a re-analysis of the deposited data

How the results depend on the processing

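As deposited, 230 of all genes were called, and 11 members, 6 other kinetochore genes and 0 cohesin genes were lower. Median-of-ratios scaling gave 1407 (580 lower and 827 higher, against 123 and 107), 24 and 9, with 1 member higher and 2 cohesin genes lower, and upper-quartile scaling gave 1434, 24 and 9, again with 1 and 2. Of all genes 4.34% were lower with upper-quartile scaling. Removing mitochondrial and hemoglobin genes gave 485 calls in all and 15 members (1.41% of all genes lower). A filter of 5 TPM gave 116 calls, 7 members (0.703%) and 2 other kinetochore genes, and one of 0.1 TPM gave 7 (0.423%) and 3. With no filter limma called 0 of all genes, members and other kinetochore genes (2894 genes and 32 members at an unadjusted p under 0.05). The median difference of the members was -0.77, and -1.03 with a pseudocount of 0.1 TPM. Deviations of same-numbered libraries from their group means had correlations of -0.172, 0.0441 and -0.12 for replicates 1, 3 and 4. These come from unscaled values of few libraries and do not settle whether the libraries are paired. The replicate block gave 738 calls, 23 members (2.75%) and 2 cohesin genes.

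Leaving out 1 library gave 65 to 808 calls in all, 1 to 25 members, 1 to 9 other kinetochore genes, 0 to 2 cohesin genes and a member median of -0.90 to -0.67. After scaling these were 439 to 1369, 12 to 24, 6 to 9, 0 to 2 and -0.83 to -0.60, with 0 or 1 member higher; all calls and members were 940 and 21 without Cend1-KO replicate 1, 1116 and 20 without its replicate 4, 506 and 21 without replicate 1 of the controls, and 1067 without their replicate 4. Directions reversed for 4 uncalled genes: Cenpb (-0.30 without Cend1-KO replicate 1, -0.15 without control replicate 3, and -0.0019 scaled without Cend1-KO replicate 1), Cenpo (-0.077 when Cend1-KO replicate 1 was dropped and -0.0096 without control replicate 1), Mis12 (-0.11 without Cend1-KO replicate 1) and Mad1l1 (0.033 without Cend1-KO replicate 3). Leaving out libraries took Cenpb up to 0.46, Cenpo to 0.24 and Mis12 to 0.30, and Mad1l1 down to -0.48. The causes were not tested, and the depth of the libraries is unknown.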
